A study of Mus musculus with 69 samples.

Results

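The proteasome subunit genes of the mouse were described here across 2 segments of the renal tubule and 2 times after removal of 1 kidney. The genes were chosen by name: symbols made of Psma, Psmb, Psmc, Psmd or Psme and a number, without the 3 immunoproteasome genes Psmb8, Psmb9 and Psmb10, and with a mean of at least 1 TPM (transcript abundance scaled for transcript length and for the total of the library) over the animals of a table. Of 43 symbols that fitted the pattern in all 4 tables, 40 were left without those 3 genes, and 38 reached the minimum in every table. These 38 members out of 53700 to 55487 listed genes comprised 14 genes of the core particle (7 Psma and 7 Psmb) and 24 regulatory genes (6 Psmc, 14 Psmd and 4 Psme). The other two, Psma8, a testis-enriched alpha subunit, and Psmb11, the thymus-specific beta subunit, had means of at most 0.695 and 0.0223 TPM in any table.

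Polyadenylated RNA was sequenced from tubules dissected by hand from kidneys of wild-type male C57BL/6 mice that were 7 weeks old at surgery. Every animal had either unilateral nephrectomy (UNx, surgical removal of 1 kidney) or a sham operation. Tubules came from the cortical collecting duct (CCD) and from the initial, S1 part of the proximal tubule (PT), 24 h or 72 h after surgery. The PT tables held 3 sham and 4 UNx animals at 24 h and 5 of each at 72 h, and the CCD tables held 4 sham and 3 UNx animals at 24 h and 4 of each at 72 h. Each animal gave 1 to 3 libraries of a segment, 69 in all, which were averaged so that the animal is the replicate. A whole tubule holds several cell types, so fewer cells of a type and less RNA per cell cannot be told apart in these values.

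The proteasome is the protease of the cytosol and nucleus that breaks down ubiquitin-tagged proteins. Its core particle is a barrel of stacked rings, in which the outer alpha rings (Psma genes) gate the entry and the inner beta rings (Psmb genes) hold the catalytic sites: Psmb5 the chymotrypsin-like, Psmb6 the caspase-like and Psmb7 the trypsin-like site. The regulatory particle caps the barrel. Its Psmc subunits are ATPases that unfold the substrate, and its Psmd subunits bind ubiquitin, remove it or build the lid and scaffold, while the Psme genes encode alternative caps. The transcription factor NFE2L1 is known to raise proteasome subunit genes together when proteasome activity falls, by binding antioxidant response elements in their promoters.

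Promoter windows from RefSeq (build GRCm38.p6, 250 bases before to 50 bases after each start site) were matched by symbol for 32 of the 38 members. Psmb1, Psmb2, Psmb7, Psmc3, Psmd3 and Psmd7 were not matched. Windows were searched on both strands for the core letters of the antioxidant response element, TGACNNNGC, and for the CCAAT box, CCAAT, a common promoter element. These letters of the response element were found in 6 of 32 members (18.8%), namely Psmb5, Psmb6, Psmc6, Psmd9, Psmd12 and Psme4, against 13.99% of all 27025 genes with a window. CCAAT was found in 12 of 32 members (37.5%) and in 41.1% of all genes, and no member's window held both. Each share among the members was thus close to that of genes at large. A match of letters describes the sequence and does not show a binding site.

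The 250 bases before the start site are printed 5′ to 3′ for 4 members: for Psmb5 (chr14:54617996-54618245, minus strand) and Psmb6 (chr11:70525107-70525356, plus strand) because they are the most abundant catalytic genes and hold the response element letters, shown in capitals, and for Psmd14 (chr2:61711444-61711693, plus strand) and Psma3 (chr12:70974373-70974622, plus strand) because their p-values came next after that of Psmb5 in the PT at 24 h and they hold CCAAT on one or the other strand, shown in capitals.
Psmb5: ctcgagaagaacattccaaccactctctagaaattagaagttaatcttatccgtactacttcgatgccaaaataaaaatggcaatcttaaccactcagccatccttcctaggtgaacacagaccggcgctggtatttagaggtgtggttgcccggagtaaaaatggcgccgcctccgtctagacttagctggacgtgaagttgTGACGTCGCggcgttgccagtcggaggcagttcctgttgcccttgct
Psmb6: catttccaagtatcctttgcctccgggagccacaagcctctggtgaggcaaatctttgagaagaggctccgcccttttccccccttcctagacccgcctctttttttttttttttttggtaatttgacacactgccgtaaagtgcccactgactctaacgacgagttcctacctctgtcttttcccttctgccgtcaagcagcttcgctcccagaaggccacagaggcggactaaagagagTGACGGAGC
Psmd14: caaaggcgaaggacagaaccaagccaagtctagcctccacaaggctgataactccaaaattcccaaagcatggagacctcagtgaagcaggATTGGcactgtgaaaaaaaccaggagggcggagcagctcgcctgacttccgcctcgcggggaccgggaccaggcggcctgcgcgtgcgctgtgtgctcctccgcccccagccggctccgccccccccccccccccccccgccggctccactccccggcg
Psma3: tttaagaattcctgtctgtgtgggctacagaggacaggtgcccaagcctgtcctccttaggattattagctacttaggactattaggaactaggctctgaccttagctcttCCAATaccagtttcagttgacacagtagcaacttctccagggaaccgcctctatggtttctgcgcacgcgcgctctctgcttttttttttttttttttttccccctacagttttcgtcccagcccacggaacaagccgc
The response element letters began 47 bases before the start site in Psmb5 and 9 bases before it in Psmb6. The CCAAT letters began 139 bases before the start site in Psma3, and in Psmd14 their reverse complement began 159 bases before it.

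Genes at 1 TPM or more numbered 9247 to 14875 per library, and mitochondrially encoded genes took 1.20% to 19.6% of the TPM. No 2 libraries held identical values. For 5 libraries, correlations with the rest of their table had a median below 0.92 (called low correlation here): 1 each of PT sham animals 1 and 3 at 24 h, 1 each of PT UNx animals 1 and 2 at 72 h and 1 of CCD sham animal 1 at 72 h. In the PT library of sham animal 1 at 24 h, 32 of the 38 members were lower than in the other libraries of that animal, with a median difference of -1.05 on the log2(TPM + 1) scale. The same held for 32 members in the library of UNx animal 1 at 72 h (median -1.02) and for 33 in that of UNx animal 2 (median -0.84). In the other libraries of the 5, the members lay on both sides: 18 of 38 were lower in that of PT sham animal 3 and 12 of 38 in that of CCD sham animal 1. Counts and medians of members are given with and without these libraries, except the median differences of the PT against the CCD at 24 h. So are the changes of single members described that their removal moved by over 1.5 times.

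The segment labels were checked against marker genes. The 6 early proximal tubule markers (Slc5a2, Slc34a1, Slc5a12, Lrp2, Slc22a6 and Cubn) summed to 6154 to 14706 TPM per animal in the PT and to 0.92 to 67.7 TPM in the CCD. The 6 principal cell markers (Aqp2, Aqp3, Avpr2, Scnn1b, Scnn1g and Fxyd4) summed to 18609.5 to 63809 TPM in the CCD and to 69.7 to 135 TPM in the PT. Both labels fitted their markers. Intercalated cell markers summed to 1905 to 3442 TPM in the CCD. Of the markers of cells outside these segments, those of the thick ascending limb reached 3455 TPM in 1 sham CCD animal at 24 h, those of the S3 part of the proximal tubule 397 TPM in 1 sham PT animal at 72 h, and those of podocytes, endothelium, leukocytes, fibroblasts, erythrocytes and distal convoluted tubule at most 139 TPM. No marker tested passed between UNx and sham animals in any table.

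Proteasome subunit genes were abundant in both segments of sham animals. Their TPM summed to 5314 ± 392 (SD, n = 3 animals) in the PT at 24 h and to 5322 ± 282 (n = 5) at 72 h. In the CCD the sum was 7174 ± 160.1 (n = 4) at 24 h and 7548 ± 665 (n = 4) at 72 h. Sham levels were higher in the CCD than in the PT for 36 of 38 members at each time, with a median PT to CCD ratio of 0.779 at 24 h and 0.747 at 72 h. These levels come from separate tables and were not tested against each other. The share of all genes with higher sham levels in the CCD was not computed, so the count may not be particular to the members. Sham libraries of the CCD also held more genes at 1 TPM or more, 12681 to 14203 against 11199 to 12494 in the PT. Psmd6, a lid subunit, and Psme4 were the 2 members higher in the PT, by 1.71-fold and 1.40-fold at 24 h. Psme1 and Psme2, the interferon-inducible subunits of the PA28 cap, had the lowest PT to CCD ratios at 24 h, 0.259 and 0.437.

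**Figure D1:**
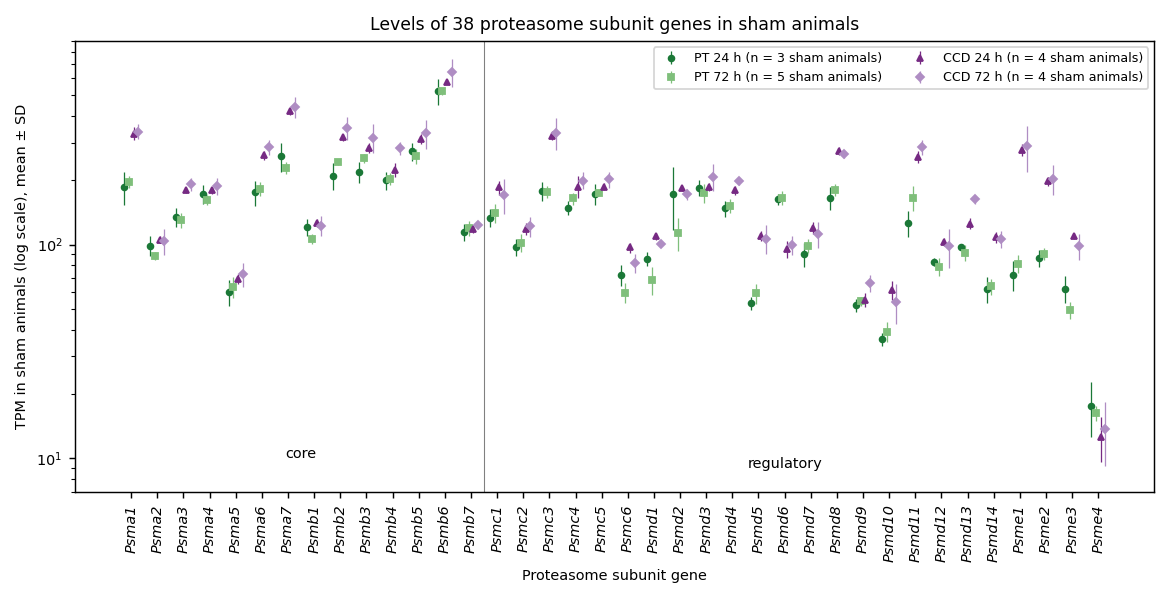
TPM of the 38 members in sham animals (y axis, log scale, mean ± SD over 3 to 5 animals) by gene (x axis), with 1 symbol for each segment and time. Psmb6 was the highest and Psme4 the lowest in all 4 tables, and most CCD symbols lie above the PT symbols of the same gene.

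The order of the members was much the same in all tables. Psmb6 had the highest mean in each, at 524 ± 74.5 and 523 ± 18.5 TPM in the PT and 578 ± 9.40 and 644 ± 97.3 TPM in the CCD at 24 h and 72 h. It was followed in the PT by Psmb5, at 273 ± 26.3 and 259 ± 21.2 TPM, and then by Psma7, an alpha ring subunit (260.1 ± 40.1 TPM), at 24 h and by Psmb3, a non-catalytic beta subunit (254 ± 13.4 TPM), at 72 h. Neither of these neighbours differed from Psmb5 beyond the SD. In the CCD Psma7 came next, at 421 ± 18.1 and 441 ± 49.9 TPM, and Psma1, an alpha subunit, at 24 h (331 ± 22.8 TPM) and Psmb2, a beta subunit, at 72 h (352 ± 42.3 TPM) followed it. These differed from Psma7 by more than the SD of either gene.

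At the low end, Psme4, the PA200 cap of nuclear proteasomes, had 17.7 ± 5.14 and 16.3 ± 1.38 TPM in the PT and 12.6 ± 2.96 and 13.8 ± 4.56 TPM in the CCD. The next above it were Psmd10 and Psmd9, chaperones that help to assemble the regulatory base and are not part of the finished particle. Psmd10 had 36.2 ± 2.51 and 39.2 ± 4.08 TPM in the PT and 61.3 ± 6.44 and 54.0 ± 11.3 TPM in the CCD, and Psmd9 had 52.0 ± 3.58, 54.5 ± 2.58, 55.2 ± 3.92 and 66.0 ± 5.81 TPM in the same order. Their means differed by less than the SD of Psmd10 in the CCD at 24 h. Only in the PT at 72 h did another gene come between them, the nuclear cap subunit Psme3 at 49.4 ± 4.53 TPM. The median member of the core had 181 and 243 TPM in PT and CCD at 24 h, and the median regulatory member 93.7 and 123 TPM. As background, the finished core holds equal numbers of each of its subunits. The highest and lowest core genes of a table differed 8.26-fold to 8.83-fold in level. Across the 38 members, log2 sham levels correlated between PT and CCD at 24 h with Pearson r = 0.88 and between the times with r = 0.98 in the PT and 0.99 in the CCD. These are correlations over genes, which share their transcript lengths and mapping.

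At 24 h, the core genes of the PT were higher in UNx than in sham animals by estimate, and no member passed the test. All 14 core genes had a positive change, from 0.20 to 0.53 on the log2(TPM + 1) scale, with a median of 0.30. The 24 regulatory genes had a median of 0.092, and 19 of them were above 0. With the 2 low-correlation sham libraries left out, the core median was 0.22 with 14 of 14 genes above 0, and the regulatory median was -0.0085 with 11 of 24 above 0. The median over all 11874 genes tested was -0.19, so that the median member lay 0.37 above it. Limma's moderated test on animal means, with Benjamini-Hochberg adjustment over all genes, called 0 of 38 members at an adjusted p under 0.05, beside 0% of all genes. At an unadjusted p under 0.05, 5 members were higher and 0 lower, against 2.59% of all genes higher and 15.2% lower. Without those libraries 1 was higher and 2 were lower, against 1.68% and 23%.

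Psmb5, which carries the chymotrypsin-like site, had the smallest p of the members. Its level was 244, 294 and 283 TPM in sham animals 1 to 3 and 359.7, 363, 473 and 339 TPM in UNx animals 1 to 4. Every UNx animal was above every sham animal, and UNx animal 3 was the highest. The means were 273 ± 26.3 TPM (SD, n = 3) and 384 ± 60.4 TPM (SD, n = 4), a change of 0.53 (SE 0.18, adjusted p = 0.25). With the low-correlation sham libraries left out the change was 0.44 (adjusted p = 0.15). The other two catalytic genes had smaller estimates: Psmb6 had a change of 0.26 (SE 0.17, adjusted p = 0.41) and Psmb7 one of 0.22 (SE 0.15, adjusted p = 0.42), and in both the groups overlapped. That of Psmb7 was 0.14 without those libraries.

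Psmd14, the deubiquitinase of the lid that frees substrates of their ubiquitin chains, was next. It had 58.3, 71.7 and 55.4 TPM in the sham animals and 79.6, 82.9, 84.9 and 73.7 TPM in the UNx animals, with no overlap and a change of 0.42 (SE 0.16, adjusted p = 0.25). Its change was 0.20 (adjusted p = 0.28) without the libraries of low correlation. The alpha ring gene Psma3 had 123, 149 and 132 TPM in sham and 171, 159, 197 and 162 TPM in UNx animals, a change of 0.40 (SE 0.16, adjusted p = 0.26). Psma5, also of the alpha ring, had 54.4, 69.8 and 56.6 TPM and 73.0, 70.5, 90.9 and 74.8 TPM, a change of 0.41 (SE 0.17, adjusted p = 0.27). In both alpha genes the lowest UNx animal lay above the highest sham animal. Sham animals 1 and 3 were lowest and sham animal 2 highest in Psma5. The changes of Psma3 and Psma5 without those libraries were 0.26 and 0.27. Among the ATPases Psmc4 came first, with a change of 0.30 (SE 0.15, adjusted p = 0.31) and no overlap, but its change was 0.14 without those libraries, when the groups overlapped.

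Altogether 8 members did not overlap between the groups and were higher in UNx (Psmb5, Psmd14, Psma3, Psma5, Psmb3, Psma2, Psma4 and Psmc4), and 0 were lower. The share of all genes without overlap was 2.79% higher and 12.1% lower. Without the 2 libraries of low correlation, 5 members were higher without overlap (Psma3, Psma4, Psma5, Psmb5 and Psmd14) and 2 were lower (Psmd3, a lid subunit, and Psme3), beside 1.65% and 21.5% of all genes. With these libraries left out 25 of 38 members had a positive change, not 33, and the median was 0.087 against -0.21 for all genes. Without sham animal 1 altogether, the median member lay 0.23 above the median gene. Psmd3 had a change of -0.24 (SE 0.15, adjusted p = 0.38) with all libraries and of -0.39 (adjusted p = 0.11) without those of low correlation. With weights for the animals (limma's arrayWeights) it was the 1 member of 38 past the threshold, beside 12% of all genes (adjusted p = 0.0481).

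Among the caps, Psme3, the nuclear cap subunit, had a change of -0.20 (SE 0.19, adjusted p = 0.54), and Psme4 one of -0.18 (SE 0.28, adjusted p = 0.73). Both estimates were above 0 with median-ratio scaling (0.037 and 0.045). That scaling divides each library by the median, over genes, of the ratio of its TPM to the gene's geometric mean over the libraries of the table. Psme1 had a change of 0.18 (SE 0.17, adjusted p = 0.55) and Psme2 one of 0.11 (SE 0.15, adjusted p = 0.69). With the low-correlation libraries left out, the changes of Psme1, Psme2, Psme3 and Psme4 were 0.12, 0.040, -0.35 and -0.028. Psme2 has a close copy, Psme2b, at 5.60 to 15.2 TPM on average in the 4 tables, so its reads may be shared between the copies. Genes named as pseudogenes of Psma5, Psmb5, Psmb6 and Psmb7 were at 1.04 TPM or less.

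**Figure D2:**
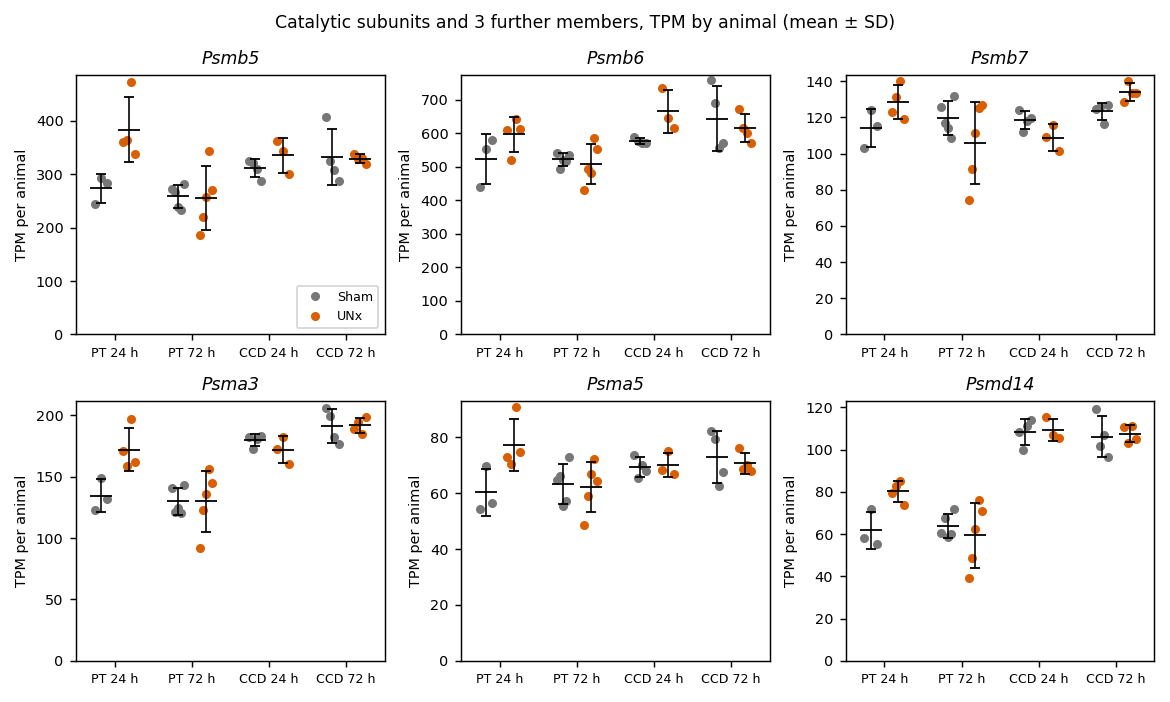
TPM per animal (y axis) by segment and time (x axis) for the catalytic genes Psmb5, Psmb6 and Psmb7 and for Psma3, Psma5 and Psmd14, with points for animals and bars for mean ± SD. In the PT at 24 h the 4 UNx animals lie above the 3 sham animals for Psmb5, Psma3, Psma5 and Psmd14.

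Summed over the 14 core genes, the PT at 24 h had 2426, 2985 and 2846 TPM in sham animals and 3227, 3076, 3694 and 3209.6 TPM in UNx animals. The groups did not overlap, and sham animal 1 was the lowest. Summed over the 24 regulatory genes the values were 2485, 2709 and 2492 TPM in sham and 2582, 2499, 2756 and 2688 TPM in UNx animals, and here the groups overlapped. Without the libraries of low correlation the core sum of sham animal 1 was 3048 TPM and that of sham animal 3, then the lowest, was 2451 TPM, and the lowest UNx animal had 3076 TPM. The early proximal tubule markers summed to 11201 to 13841 TPM in these sham animals and to 7615 to 11277 TPM in the UNx animals, with 0 of 6 past the test. Of these markers only Slc22a6 had a higher mean in UNx animals, 791 TPM against 356 TPM in sham animals. Macrophage and leukocyte markers (Ptprc, Cd68, Adgre1, C1qa, C1qb and Csf1r) summed to 16.1 to 28.3 and 11.0 to 31.0 TPM. The 4 markers of the S3 part of the proximal tubule (Slc7a13, Slc22a7, Cyp7b1 and Slc5a1) summed to 2.08 to 55.4 TPM in sham and 2.06 to 246 TPM in UNx animals, with a median change of 0.86 over the 3 tested, of which 0 passed. Among them Slc5a1 had a mean of 1.61 TPM in the sham group and of 27.2 TPM in the UNx group. The part of cell makeup and library quality in these changes was not tested.

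**Figure D3:**
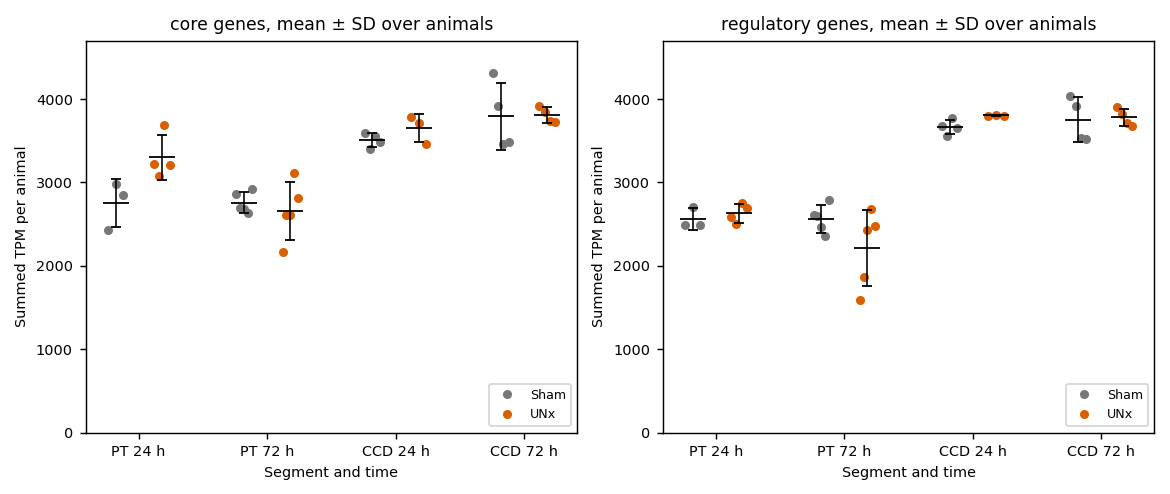
Summed TPM per animal (y axis) of the 14 core genes (left) and the 24 regulatory genes (right) in sham and UNx animals, by segment and time (x axis), with bars for mean ± SD. The core sums of the PT at 24 h separate the groups, and UNx animals 1 and 2 of the PT at 72 h lie lowest in the regulatory sums.

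At 72 h, most members of the PT were lower in UNx than in sham animals by estimate with TPM as deposited and higher with median-ratio scaling, and none passed the test. The median change was -0.22 for the 38 members and -0.29 for all 11886 genes. Of the members 2 had a positive change with TPM as deposited and 34 with median-ratio scaling, so the direction depends on the scaling. Psmd7 and Psmd3, described next, were below 0 under both. The core median was -0.066 and the regulatory median -0.29. Without the 2 UNx libraries of low correlation these were -0.051 and -0.013, beside -0.021 for all genes. Limma called 0 of 38 members, beside 0% of all genes. At an unadjusted p under 0.05, 0 members were higher and 2 lower, beside 1.33% and 19.1% of all genes. Without overlap, 0 were higher and 1 lower, beside 0.236% and 5.33%. Without the 2 libraries, 0 members were higher and 3 lower at an unadjusted p under 0.05, beside 9.6% and 8.1% of all genes. Then 0 members lay higher and 0 lower without overlap, beside 1.54% and 1.62%.

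Psmd7, a lid subunit that pairs with Psmd14, had 102, 93.6, 107, 89.9 and 101 TPM in sham animals 1 to 5 and 63.8, 67.5, 85.6, 86.0 and 86.1 TPM in UNx animals 1 to 5. Every UNx animal was below every sham animal. The change was -0.40 (SE 0.17, adjusted p = 0.24), and -0.16 (adjusted p = 0.31) without the 2 UNx libraries of low correlation, when the groups overlapped. Psmd3 had 184, 176, 157, 158 and 197 TPM in sham and 91.3, 101, 162, 159 and 148 TPM in UNx animals. UNx animals 1 and 2, whose libraries include those 2, were the lowest. Its change of -0.63 (SE 0.28, adjusted p = 0.24) was -0.11 (adjusted p = 0.56) without them. The assembly chaperone Psmd9 came next among regulatory genes, with a change of -0.34 (SE 0.17, adjusted p = 0.26) that was 0.045 with median-ratio scaling and -0.21 without the 2 libraries.

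Among the core genes, the smallest p values belonged to the beta subunit Psmb4, with a change of -0.24 (SE 0.15, adjusted p = 0.33), and to Psmb7, with -0.22 (SE 0.19, adjusted p = 0.45), and both estimates were above 0 with median-ratio scaling (0.15 and 0.17). Without the 2 libraries they were -0.14 and -0.044. Of the other catalytic genes, Psmb5 was at -0.038 (SE 0.18, adjusted p = 0.90) and Psmb6 at -0.042 (SE 0.14, adjusted p = 0.86) with TPM as deposited, and at 0.35 and 0.35 with median-ratio scaling. Without the 2 libraries Psmb5 was at 0.032 and Psmb6 at -0.066. Psmb5 had 273, 266, 239, 234 and 282 TPM in sham and 186, 220.2, 258, 344 and 271 TPM in UNx animals, so the UNx animals lay on both sides of the sham animals. Psme1 had 83.7, 79.8, 93.7, 77.4 and 72.8 TPM in sham and 51.3, 67.4, 73.4, 71.1 and 70.4 TPM in UNx animals, with UNx animal 1 the lowest, and had a change of -0.29 (SE 0.16, adjusted p = 0.28). Psme2, Psme3 and Psme4 had a change of -0.12, -0.32 and -0.23, with adjusted p values of 0.56, 0.41 and 0.41. All 4 Psme estimates were above 0 with median-ratio scaling. Without the 2 libraries the changes of Psme1, Psme2, Psme3 and Psme4 were -0.24, -0.14, 0.17 and 0.042, so those of Psme3 and Psme4 turned sign. Without the 2 libraries of low correlation, the median change was -0.038 for the members and -0.021 for all genes, and 13 of 38 members were above 0.

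**Figure D4:**
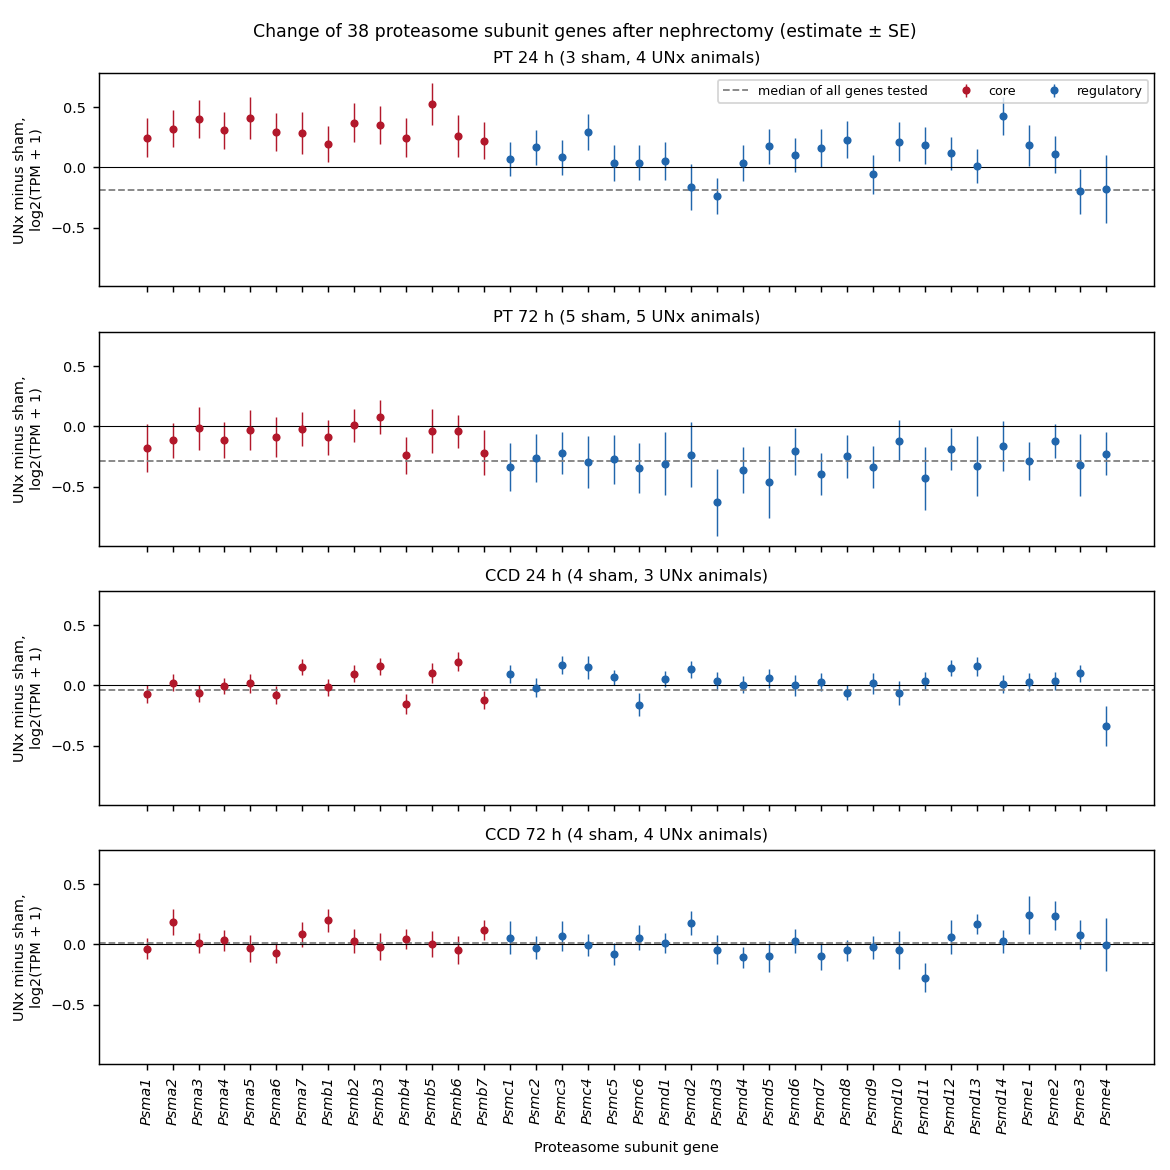
Change of each member (x axis) between UNx and sham animals on the log2(TPM + 1) scale (y axis, estimate ± SE), core genes in red and regulatory genes in blue, with the median of all genes tested as a dashed line. In the PT at 24 h all 14 core genes lie above 0 and 36 of 38 members above the dashed line, while the CCD values lie close to it.

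In the CCD at 24 h, the estimates of the members were small. The median change was 0.028 over the 38 members and -0.038 over all 13775 genes, with 25 members above 0. Limma called 0 members, beside 0.987% of all genes. At an unadjusted p under 0.05, 3 members were higher and 0 lower, beside 5.55% and 9.97% of all genes. Without overlap, 3 were higher (Psmb6, Psma7 and Psmd12) and 0 lower, beside 5.55% and 9.51%. The median SE of a change was 0.074 for members and 0.14 for all genes.

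Psmb6 had 591, 579, 571 and 571 TPM in sham animals 1 to 4 and 737, 645 and 615 TPM in UNx animals 1 to 3. All UNx animals were higher, 1 of them by a wide margin, and the change was 0.20 (SE 0.077, adjusted p = 0.26). Psma7 had 419, 398, 427 and 442 TPM in sham and 476, 469.6 and 459 TPM in UNx animals, with no overlap and a change of 0.15 (SE 0.065, adjusted p = 0.31). The ATPase gene Psmc3 had 319, 325, 345 and 308 TPM and 389, 340.2 and 364 TPM, which overlapped, and had a change of 0.17 (SE 0.074, adjusted p = 0.32). With every library taken as a replicate, which counts an animal more than once, Psmc3 alone of the 38 members had an adjusted p under 0.05, beside 7.46% of all genes. Psmb3 (0.16, SE 0.072, adjusted p = 0.34) and the lid subunit Psmd12 (0.14, SE 0.068, adjusted p = 0.36) followed.

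Of the other catalytic genes, Psmb5 had a change of 0.10 (SE 0.084, adjusted p = 0.60) and Psmb7 one of -0.12 (SE 0.074, adjusted p = 0.47). Psme4 had the lowest change of all members, -0.34 (SE 0.17, adjusted p = 0.38), from 12.1, 10.3, 16.9 and 11.1 TPM in sham to 8.80, 10.4 and 9.48 TPM in UNx animals, which overlapped. The changes of Psme1, Psme2 and Psme3 were 0.028, 0.034 and 0.099, with adjusted p values of 0.90, 0.88 and 0.55. The regulatory sum was 3682, 3561, 3767 and 3651 TPM in sham and 3794, 3813 and 3803 TPM in UNx animals, without overlap, and the core sums of 3593, 3406, 3555 and 3481 and 3782, 3713 and 3467 TPM overlapped. A sum is weighted to abundant genes. The mean log2 level of the regulatory genes overlapped, at 6.97 to 7.09 in sham and 7.04 to 7.08 in UNx animals. Of the 24 regulatory genes, 1 did not overlap.

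In the CCD at 72 h, the members lay on both sides of 0, with a median change of 0.011 against 0.010 over all 13770 genes. Limma called 0 members, beside 0.595% of all genes. At an unadjusted p under 0.05, 0 members were higher and 1 lower, beside 4.66% and 2.82% of all genes. Without overlap, 1 was higher (Psmb7) and 0 lower, beside 3.23% and 1.54%. Without the sham library of low correlation, the median change was 0.021 against -0.072 over all genes. At an unadjusted p under 0.05, 4 members were then higher and 1 lower, beside 5.53% and 8.64%, and 4 were higher without overlap (Psma2, Psma4, Psmb1 and Psmb7) and 0 lower, beside 3.78% and 4.86% of all genes.

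The lid subunit Psmd11 had the smallest p. Its level was 285, 304, 303 and 252 TPM in sham animals 1 to 4 and 268, 266, 218 and 197 TPM in UNx animals 1 to 4, which overlapped, and the change was -0.28 (SE 0.12, adjusted p = 0.64). Psmb1, a non-catalytic beta subunit, had a change of 0.20 (SE 0.094, adjusted p = 0.70), the alpha subunit Psma2 one of 0.18 (SE 0.11, adjusted p = 0.81) and the lid subunit Psmd13 one of 0.17 (SE 0.083, adjusted p = 0.73). Psmb7 had 125, 126, 116 and 127 TPM in sham and 128, 140.3, 134 and 133 TPM in UNx animals. All 4 UNx animals were higher, with a change of 0.12 (SE 0.080, adjusted p = 0.85). The other catalytic genes, Psmb5 and Psmb6, had a change of 0.00077 and -0.049, with adjusted p values of 0.999 and 0.97. With the low-correlation sham library left out they were 0.043 and 0.016.

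The differences between the 4 UNx effects were then tested with a contrast of the groups. Of the PT at 24 h against the PT at 72 h, limma called 0 of 38 members, beside 0% of all 11455 genes, and 4 members at an unadjusted p under 0.05, beside 3.33%. All 38 members had a higher change at 24 h by estimate, with a median difference of 0.39 against 0.098 over all genes. Without the libraries of low correlation it was 26 of 38, with 3 members at an unadjusted p under 0.05 beside 22.6% of all genes and a median of 0.15 against -0.20. Of these 3 members Psme1 had a higher change at 24 h (0.36), and Psme3 and Psmd3 had a lower one (-0.52 and -0.28). In the fit with all libraries, Psmd7 and Psmb4 had the smallest p, with differences of 0.55 (SE 0.24, adjusted p = 0.998) and 0.48 (SE 0.22, adjusted p = 0.998). Without the libraries of low correlation they were 0.25 (adjusted p = 0.23) and 0.31 (adjusted p = 0.24). With all libraries, the changes of the 38 members at 24 h and at 72 h had a Pearson r of 0.67 in the PT and of 0.092 in the CCD. These are descriptions over genes, and the points of a table share its libraries. An r without the libraries of low correlation is not given. When those were left out, the core median of the PT lay above the regulatory median at 24 h (0.22 and -0.0085). It lay below it at 72 h (-0.051 and -0.013), so the 0.67 need not hold without these libraries.

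Of the CCD at 24 h against 72 h, 0 members were called, beside 0% of all 13253 genes, and 1 had an unadjusted p under 0.05, beside 4.96%. Psmb7 and Psmd11 had the smallest p, at -0.24 (SE 0.098, adjusted p = 0.97) and 0.31 (SE 0.15, adjusted p = 0.97). Without the library of low correlation 6 members had an unadjusted p under 0.05, beside 8.47%. The fits of the PT against the CCD treated the values of both segments as coming from separate animals. The labels reuse animal numbers across the segments, and any sharing of mice was not modelled. Of the PT against the CCD at 24 h, 0 members were called, beside 0.137% of all 10988 genes. At an unadjusted p under 0.05 there were 8 members, all higher in the PT, beside 15.4% of all genes. Psma3 differed by 0.47 (SE 0.16, adjusted p = 0.23) and Psmd14 by 0.41 (SE 0.16, adjusted p = 0.26). With those of low correlation left out, 3 members had an unadjusted p under 0.05, 1 higher and 2 lower in the PT, beside 20.9%, and Psmd14 differed by 0.19 (adjusted p = 0.37). With all libraries, the median difference was 0.32 for core and 0.088 for regulatory genes, against -0.13 for all genes. The median over the members relative to all genes was then 0.28, and 0.13 without PT sham animal 1. These medians are not given without the libraries of low correlation, which at 24 h were all of the PT. With those left out, the PT change itself had a median of 0.22 for core and -0.0085 for regulatory genes. Of the PT against the CCD at 72 h, 0 members were called, beside 0% of all 11035 genes, and 1 had an unadjusted p under 0.05, beside 9.33%. The cap subunits Psme1 and Psme2 had the smallest p, with differences of -0.53 (SE 0.22, adjusted p = 0.49) and -0.36 (SE 0.17, adjusted p = 0.49). Without the libraries of low correlation 5 members had an unadjusted p under 0.05, beside 14.9%.

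The 3 immunoproteasome genes, which interferon induces to replace Psmb5, Psmb6 and Psmb7 in the core, had lower means than those counterparts in sham animals of every table. The gap was smallest for Psmb10 in the CCD at 72 h, at 61.3 ± 20.5 TPM in sham animals beside 123 ± 4.81 TPM of Psmb7 (SD, n = 4). In sham animals of the PT at 24 h Psmb8, Psmb9 and Psmb10 had 6.61 ± 1.02, 2.78 ± 0.361 and 14.1 ± 2.92 TPM (SD, n = 3). In those of the CCD at 24 h they had 37.7 ± 8.35, 17.9 ± 5.23 and 52.6 ± 8.60 TPM (n = 4). Like Psme1 and Psme2, all 3 had higher levels in the CCD tables. None passed the test in any table (limma, smallest adjusted p = 0.34).

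Their estimates were largest in the CCD at 72 h. Psmb8, which replaces Psmb5, had 87.0, 53.7, 28.7 and 38.4 TPM in sham animals and 79.8, 153, 28.6 and 127 TPM in UNx animals, a change of 0.72 (SE 0.45, adjusted p = 0.84). Psmb9, which replaces Psmb6, had 30.5, 18.9, 17.1 and 22.1 TPM in sham and 35.6, 66.9, 13.0 and 60.3 TPM in UNx animals, a change of 0.77 (SE 0.40, adjusted p = 0.76). Psmb10, which replaces Psmb7, had 78.8, 77.5, 36.7 and 52.1 TPM and 81.8, 109, 50.2 and 117 TPM, a change of 0.50 (SE 0.29, adjusted p = 0.79). The groups overlapped in all 3 genes, and UNx animals differed among themselves more than sham animals did. Psme1, at 383, 308, 231 and 239 TPM in sham and 346, 318, 303 and 377 TPM in UNx animals, had a change of 0.24 (SE 0.16, adjusted p = 0.85), and Psme2 one of 0.24 (SE 0.12, adjusted p = 0.75). The other caps, Psme3 and Psme4, had changes of 0.078 (adjusted p = 0.95) and -0.0030 (adjusted p = 0.999). Macrophage and leukocyte markers summed to 22.5 to 81.7 TPM in sham and 38.03 to 68.3 TPM in UNx animals, with a median change of 0.39, 0 of 6 past the test and none of the 6 at 0 throughout. Their part in the values was not tested. Without the low-correlation library of sham animal 1, the changes of Psme2, Psme3 and Psme4 were 0.36, -0.053 and -0.044, and those of Psmb8, Psmb9, Psmb10 and Psme1 were 0.98, 1.03, 0.63 and 0.31, with adjusted p values of 0.34, 0.31, 0.33 and 0.29.

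At the earlier CCD time, the changes of Psmb8, Psmb9 and Psmb10 were -0.28, -0.34 and -0.27, with adjusted p values of 0.53, 0.49 and 0.36. Those of the PT were 0.19, -0.15 and 0.19 at 24 h and -0.32, -0.17 and -0.33 at 72 h, and all 3 values at 72 h and that of Psmb9 at 24 h were above 0 with median-ratio scaling. Without the libraries of low correlation the PT values were -0.091, -0.32 and 0.028 at 24 h, with that of Psmb8 turned in sign, and -0.19, -0.11 and -0.46 at 72 h. The difference of the CCD effects, 24 h minus 72 h, was -1.003 (SE 0.56, adjusted p = 0.97) for Psmb8, -1.11 (SE 0.52, adjusted p = 0.97) for Psmb9 and -0.77 (SE 0.36, adjusted p = 0.97) for Psmb10.

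**Figure D5:**
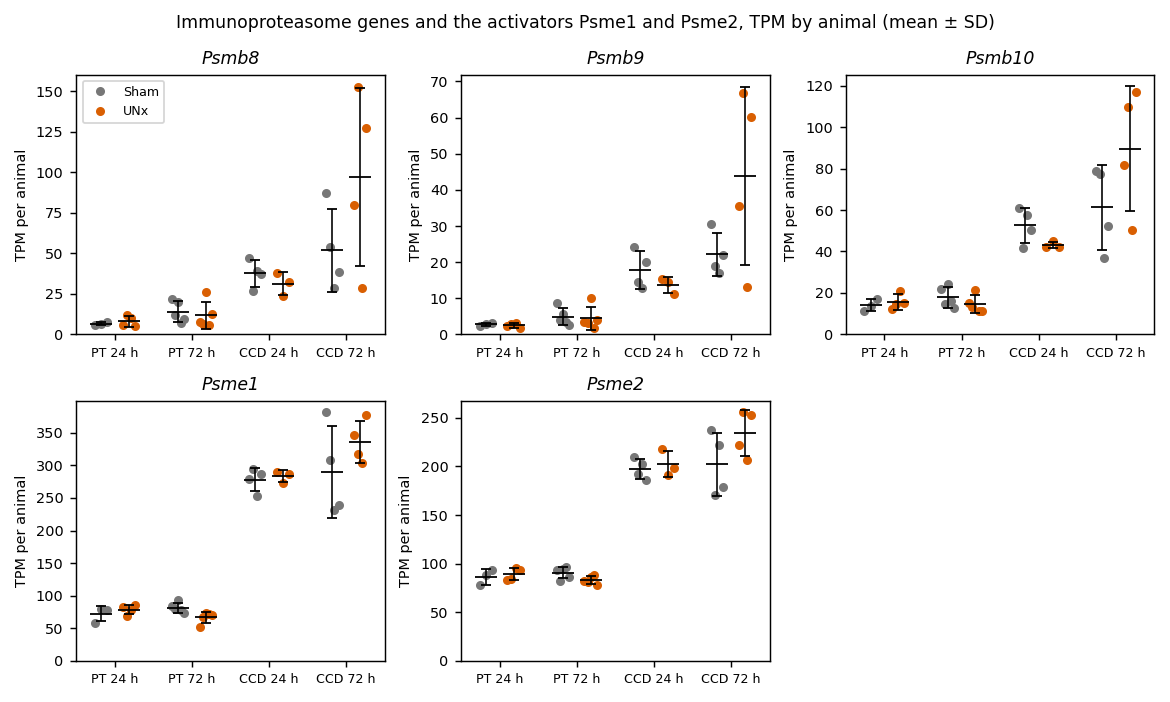
TPM per animal (y axis) of Psmb8, Psmb9, Psmb10, Psme1 and Psme2 in sham and UNx animals, by segment and time (x axis), with bars for mean ± SD. At each time all 5 genes have higher values in the CCD than in the PT, and in the CCD at 72 h the UNx animals overlap the sham animals in each gene.

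Genes that act with the proteasome were described by their counts in the same order of tables, PT at 24 h and 72 h and CCD at 24 h and 72 h. Of the assembly factors (Psmg1 to Psmg4, Pomp, Paaf1 and Akirin2), 6 of 7 were tested in each table and 0 passed. Their median changes were 0.14, -0.18, -0.026 and 0.081. Psmg2, part of the chaperone pair that builds the alpha ring, had the smallest p in the PT at 24 h (0.33, SE 0.15, adjusted p = 0.29), in the CCD at 24 h (-0.16, SE 0.11, adjusted p = 0.50) and in the CCD at 72 h (0.16, SE 0.11, adjusted p = 0.85). Akirin2, which brings proteasomes into the nucleus, had it in the PT at 72 h (-0.48, SE 0.20, adjusted p = 0.24). When the low-correlation libraries were left out, the change of Psmg2 in the PT at 24 h was 0.18 and that of Akirin2 was -0.21.

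Of the 8 cofactors bound to the particle (Adrm1, Sem1, Uchl5, Usp14, Ecpas, Psmf1, Ube3c and Zfand5), 0 passed in any table, and the medians were -0.14, -0.41, -0.024 and 0.046. Ecpas, an adaptor that tethers proteasomes, was lowest in p in the PT, at -0.60 (SE 0.25, adjusted p = 0.27) at 24 h and -0.62 (SE 0.24, adjusted p = 0.24) at 72 h, and the latter was -0.11 without the libraries of low correlation. Zfand5, an activator of the particle, had a change of -0.31 (SE 0.081, adjusted p = 0.12) in the CCD at 24 h with no overlap. Sem1, a small lid subunit named outside the Psm pattern, had a change of 0.42 (SE 0.13, adjusted p = 0.36) in the CCD at 72 h, again with no overlap.

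Of the 6 regulators of proteasome genes (Nfe2l1, Nfe2l2, Ddi2, Ngly1, Stt3a and Vcp), which make, process or resemble NFE2L1, 0 passed, with medians of -0.24, -0.38, 0.063 and 0.030. Nfe2l1 itself was lower by estimate in the PT at 24 h, from 28.0 to 17.7 TPM on average (-0.52, SE 0.25, adjusted p = 0.30). The median change of all genes there was -0.19. A link of Nfe2l1 RNA to the changes of the members was not tested. Ddi2, the protease that activates NFE2L1, had the smallest p in the PT at 72 h (-0.60, SE 0.25, adjusted p = 0.24, and -0.052 without the libraries of low correlation), in the CCD at 24 h Vcp, the segregase that hands over ubiquitinated proteins (0.12, SE 0.060, adjusted p = 0.38), and in the CCD at 72 h Nfe2l2, the related factor of the oxidative stress response (-0.21, SE 0.11, adjusted p = 0.75).

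Of 13 genes for ubiquitin, its activating enzymes and shuttle proteins, 0 passed, with medians of -0.28, -0.34, 0.039 and 0.044. The smallest p belonged to the shuttle gene Ubqln4 in the PT at 24 h (-0.72, SE 0.22, adjusted p = 0.25) and to the activating enzyme gene Uba1 in the CCD at 24 h (0.20, SE 0.074, adjusted p = 0.25).

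As complexes of many subunits to set beside the members, the 8 genes of the CCT chaperonin, which folds actin and tubulin, had medians of 0.12, -0.27, -0.032 and 0.0038 and 0 past the test. The smallest p were those of Cct4 in the PT at 24 h (-0.32, SE 0.19, adjusted p = 0.35), Cct6a in the PT at 72 h (-0.47, SE 0.23, adjusted p = 0.25) and in the CCD at 24 h (0.11, SE 0.063, adjusted p = 0.46), and Tcp1 in the CCD at 72 h (0.094, SE 0.085, adjusted p = 0.90). The 76 genes of cytosolic ribosomal proteins had medians of 0.051, 0.068, -0.017 and 0.27. Of these 1 passed, Rps25 in the CCD at 24 h (-0.72, SE 0.094, adjusted p = 0.021), and the smallest p at 72 h were those of Rpl3 in the PT at 72 h (-0.46) and Rps29 in the CCD at 72 h (0.88). At 24 h in the PT the median changes of the CCT and ribosomal genes thus also lay above that of all genes (-0.19), by 0.31 and 0.24, beside 0.37 for the members. Without the libraries of low correlation, the medians of the PT at 72 h were -0.21 for the assembly factors, -0.062 for the cofactors, 0.044 for the regulators, -0.056 for the ubiquitin list, 0.034 for CCT and -0.23 for the ribosomal genes. Those of CCT and the ribosomal genes in the PT at 24 h were then -0.019 and 0.073. Rpl3 in the PT at 72 h was at -0.29 and Cct6a at -0.026. In the CCD at 72 h with all libraries, the ribosomal genes lay 0.26 above the median of all genes, and the proteasome members 0.0011. Without the library of low correlation, the ribosomal genes lay 0.46 above it, the core genes 0.15 and the regulatory genes 0.073.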

How the data were processed

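The authors deposited 4 tables of TPM, 1 for each segment and time, made with STAR, RSEM 1.3.3 and build GRCm39, per the submitters' processing notes. The STAR version and the annotation are not given in the sources used here. TPM carries no depth, so the depth of each library is unknown, and no counting interval was computed. Of the 69 columns, 47 were matched to 1 sample by name and 22 to a group and animal.

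The log2(TPM + 1) values of an animal's libraries were averaged, genes with a mean of at least 1 TPM over a table's animals were kept, and UNx and sham animals were compared in each table with limma 3.58.1 in R 4.3.3 (lmFit and eBayes with trend), with Benjamini-Hochberg adjustment over all genes tested. Differences of effects used a contrast of 4 groups, with no term for mice that may have given both segments. Fold changes on this scale understate those of low genes. Labels name animals, and p-values measure the spread between them. The scripts were tested on simulated data.

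Members and gene lists were chosen with earlier results of these data known. Named genes were the catalytic and Psme members and the immunoproteasome genes always, in each table the 3 core and 3 regulatory members with the smallest p, the 3 highest and 3 lowest sham levels, the 2 members with the smallest p of each difference, any gene past the test, and otherwise the gene with the smallest p of each further list, of which some are not reported here. Psma2, Psma4, Psmc4 and others listed for groups without overlap, Psmd6 and the near copies were named after their values were seen. Alternatives changed the pseudocount to 0.1, the filter to 5 TPM or to TPM above 0 in at least 3 animals, the scaling, the unit of replication, the weights, the block and the libraries or animals included.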

Additional observations from a re-analysis of the deposited data

Results flagged for a closer look

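In groups of 4 to 5 animals, Dixon's gap test at the 95% level marked 3 of 105 groups of TPM values of named members and immunoproteasome genes. Chance marks about 1 group in 20. In the PT at 72 h, UNx animal 1 had 51.3 TPM of Psme1, and the other UNx animals had 67.4 to 73.4 TPM. That animal has 1 of the libraries of low correlation. In the same table, UNx animal 3 had 10.03 TPM of Psmb9, and the others 1.70 to 3.90 TPM. In the CCD at 72 h, UNx animal 3 had 15.2 TPM of Psme4, and the others 12.3 to 12.7 TPM.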

How the results depend on the processing

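No member passed an adjusted p of 0.05 in any table or difference under any alternative run, except that array weights called 1 member in the PT at 24 h (Psmd3, change -0.39) and that taking every library as a replicate called 1 in the CCD at 24 h (Psmc3, change 0.19). Array weights called 1426 of all genes in the PT at 24 h, where the fit without weights called 0. The median change of members relative to all genes in the PT at 72 h was 0.063, and it was -0.15 without the filter on low values, which added many low genes, and -0.033 with quantile normalization, for which the cause was not tested. With 1 animal left out at a time it ran from 0.23 to 0.49 in the PT at 24 h, from 0.032 to 0.10 in the PT at 72 h, from 0.039 to 0.094 in the CCD at 24 h and from -0.053 to 0.12 in the CCD at 72 h, and the members called stayed at 0. Median-ratio scaling moved the median of all genes from -0.19 to 0.011 in the PT at 24 h and from -0.29 to 0.014 at 72 h, with relative medians of the members of 0.40 and 0.14. Of 1087 changes of named members under alternatives, 1012 kept direction and call, 73 turned sign without ever passing the test and 2 newly passed. The depth behind these TPM values is unknown.

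Animals of the 2 groups share numbers, and whether the numbers mark pairs is not known. Same-number correlations of deviations ran from -0.37 to 0.33. In no table did every animal correlate best with its own number (3 of 6, 2 of 10, 0 of 6 and 2 of 8). With 3 to 5 shared numbers in a table, these correlations cannot exclude pairs. The fit with the replicate block, over numbers present in both groups, called 0 members in each table and 80, 0, 0 and 3 of all genes, where the fit without it called 0, 0, 136 and 82. Its relative median for the members in the PT at 24 h was 0.36.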
